A study of Mus musculus with 6 samples.

Results

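The Hox genes of the 4 clusters were measured at E9.5 in trunk and tail tissue of mouse embryos, with 3 samples labelled Fkbp8 mutant and 3 labelled wildtype. Probes were chosen by gene symbol, as Hoxa, Hoxb, Hoxc or Hoxd followed by a number from 1 to 13. The rule itself used no measured value, but earlier results of these data were known when it was set. The rule found 35 probes for 34 Hox genes, among 22230 probes with 1 symbol for 18531 genes and 34967 probes for genes in all. The RefSeq gene table lists 39 mouse Hox genes. Hoxb2, Hoxc11, Hoxc12, Hoxd4 and Hoxd12 had no probe with a single symbol and are not analysed here. Of the clusters, A (chromosome 6) was covered by 11 of 11 genes, B (chromosome 11) by 9 of 10, C (chromosome 15) by 7 of 9 and D (chromosome 2) by 7 of 9.

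All embryos had parents heterozygous for an Fkbp8 mutation, and the tissue lay directly behind the forelimb bud. Each sample (mutants a, b and c, wildtypes d, e and f) was hybridized to its own 1-colour CodeLink Mouse Whole Genome array. The labels do not name the mutant allele or the strain, and they do not say whether a sample was 1 embryo or a pool. The p-values therefore measure the spread between these samples, which may in part be technical. Fkbp8 encodes an FK506-binding protein of the outer mitochondrial membrane, and the series asks by its title about cell death and dorsoventral patterning in the posterior neural tube.

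Hox genes encode homeodomain transcription factors that give tissues their position along the head-to-tail axis. They lie in clusters, and genes with low paralogue numbers are switched on earlier and reach further forward than genes with high numbers, so that posterior tissue at this stage holds an overlapping set of them. Genes with the same number in different clusters (paralogues) arose by duplication and often act together. In the trunk they pattern vertebrae, motor neuron columns of the spinal cord and the limb fields, and they are activated by CDX factors, WNT, FGF and retinoic acid.

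The labels were checked first. The log2 intensity of Fkbp8 was 10.57, 10.74 and 10.67 in wildtype and 6.28, 6.30 and 6.11 in mutants, with 0 of 3 mutant arrays above background. That is at least 18.8-fold lower in mutants (limma adjusted p = 1.18e-07). Probes above background made up 57.6% (mutant c) to 61.8% (wildtype f) of the gene probes. The brighter Xist probe (X-linked) exceeded background on all 3 wildtypes and no mutant, and the Y-linked Eif2s3y, Ddx3y and Uty showed the reverse, so genotype and sex-linked expression cannot be told apart, for Hox genes as for all others. With Kdm5d, 5 of 5 sex-linked markers passed the test. All log2 values include a background correction that compresses dim signals.

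Markers of the labelled tissue were mostly present, and some markers of the head were too. Tailbud (5 of 5), hindlimb field (3 of 3), forelimb field (Tbx5) and somite markers (4 of 4) were above background on all 6 arrays, as were the measured markers of hindgut (2 of 2) and surface ectoderm (Epcam). Of the lateral plate markers, Foxf1 and Hand1 were above background on all 6 arrays and Hand2 on none. The forebrain and midbrain marker Otx2 was above background on no array, but Six3, which marks the forebrain, was above background on all 6, with wildtype log2 intensities of 11.01, 10.89 and 10.67. Whether that probe reports Six3 alone was not tested, so its signal is not taken as a sign of forebrain tissue. En1 was above background on all 6 arrays and En2 on all those with a usable spot. Egr2, which marks hindbrain rhombomeres, was above background on 1 mutant array and on no wildtype array. All 6 erythroid markers were above background wherever the spot was usable.

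Outside the sex-linked list, 1 of these markers, Pax6, passed the test between genotypes. The summed linear intensity of Sox1, Sox2 and Pax6, the 3 spinal neural tube markers, ranged from 910 to 1306 in mutants and from 1675 to 1780 in wildtype, and Pax6 fell (log2 fold change -1.15, limma adjusted p = 0.00287). The others did not pass, with log2 fold changes of -0.05 for Sox1 (limma adjusted p = 0.797) and -0.50 for Sox2 (limma adjusted p = 0.356). The summed tailbud markers ranged from 3610 to 4399 in mutants and from 4111 to 4600 in wildtype. Corresponding ranges were 4043 to 4720 and 3566 to 4343 for somite, 1902 to 2305 and 2169 to 2377 for hindlimb field, and 672 to 849 and 718 to 825 for lateral plate markers. The 5 erythroid markers with a value on all arrays summed to 73011 to 80342 in mutants and 68001 to 79851 in wildtype. The ranges overlapped for each of these lists but the neural one, and the part of any of them in the Hox values was not tested. In such tissue pieces, fewer cells of a type and less RNA per cell cannot be told apart.

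Hox genes of nearly every paralogue number were detected in wildtype. Of the 35 Hox probes, 32 (91.4%) were above background on all 3 wildtype arrays, against 63.1% of all probes with 1 symbol. Detected on all 3 wildtype arrays were all probes of paralogue groups 1 to 5 and 7 to 11, 2 of the 3 probes of group 6 and 3 of the 5 probes of group 13. The exceptions were Hoxa6 (0 of 3 arrays), Hoxa13 (2 of 3) and the dimmer of 2 Hoxd13 probes (2 of 3). The tissue thus gave signal from the first group, best known from the hindbrain, to the last group, which marks the end of the axis. In mutants 30 probes were above background on all 3 arrays. The probes that differed were the brighter Hoxd13 probe and Hoxd9, each on 2 of 3 mutant arrays, where the missing Hoxd9 spot (mutant a) was marked unusable.

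**Figure D1:**
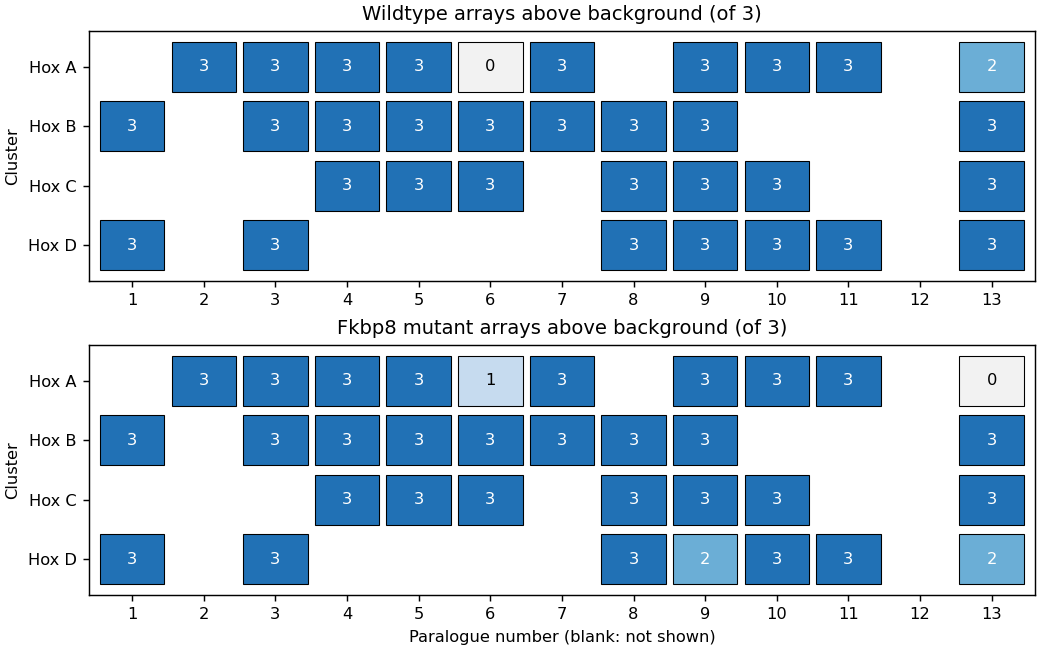
Number of arrays (of 3) on which each Hox gene was above background, by cluster (rows) and paralogue number (columns), in wildtype (top) and Fkbp8 mutants (bottom); the brighter probe stands for Hoxd13. Nearly every filled square holds 3, and Hoxa6 (0 in wildtype, 1 in mutants) and Hoxa13 (2 in wildtype, 0 in mutants) stand out.

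The members close to background had these levels. Hoxa6 had log2 intensities of 6.22, 6.36 and 6.39 in wildtype and 6.52, 6.23 and 6.09 in mutants, and it was not tested. Hoxa13, a gene of the hindgut end and the digits, had 5.99, 6.46 and 6.4 in wildtype and 6.33, 6.32 and 6.24 in mutants, and it was not tested either. The values of both genes overlapped between the groups, around the lowest values above background on these arrays (6.37 to 6.47). Hoxd13, a digit gene, had 6.60, 6.67 and 6.68 in wildtype and 6.76, 6.49 and 6.61 in mutants at its brighter probe. At its other probe it had 6.61, 6.41 and 6.53 in wildtype and 6.65, 6.52 and 6.46 in mutants. Hoxd9 had 7.22, 7.08 and 7.06 in wildtype and 6.95 and 7.10 in mutants b and c. None of these 4 genes separated the groups, and at this signal a small change would not be detectable.

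Other high-numbered genes were well above background in wildtype. In wildtype d, e and f, Hoxb13, a gene that limits tail length, had log2 intensities of 9.87, 9.86 and 9.70, and Hoxc13 had 8.92, 9.20 and 8.79. Hoxa11 had 8.97, 8.60 and 8.81, and Hoxd11, which acts with it in the sacral region, forearm and kidney, had 10.97, 10.93 and 10.81. The lumbar genes of group 10 were above background on all arrays too, with wildtype means of 9.06 ± 0.18 for Hoxa10, 11.06 ± 0.11 for Hoxc10 and 9.90 ± 0.06 for Hoxd10 (SD, n = 3 each). Signals of different probes depend on the probe and give no order among these genes.

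**Figure D2:**
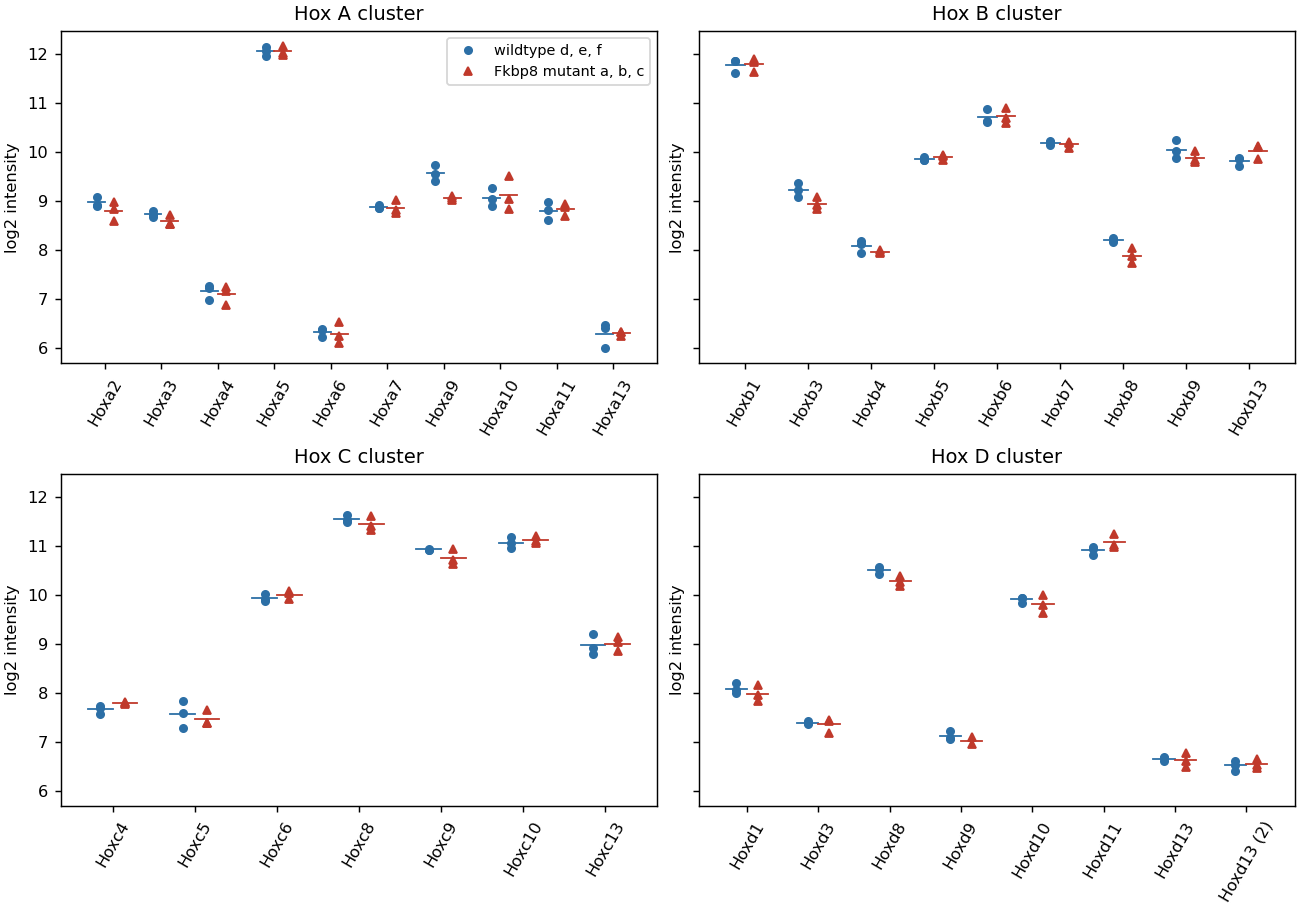
Log2 intensity of the reported Hox probes on each array, in 4 panels by cluster; circles are wildtype d, e and f, triangles Fkbp8 mutants a, b and c, and short lines the group means. Mutant and wildtype points overlap for most genes. All 3 mutant points of Hoxa9, Hoxb8 and Hoxd8 lie below all 3 wildtype points, and those of Hoxc4 and Hoxd11 lie above them. Hoxd13 (2) is the dimmer probe of Hoxd13.

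No Hox gene passed the test between mutants and wildtype. Of 33 Hox probes tested (32 genes), 0 had a limma adjusted p under 0.05, where 26 of all 21688 probes tested did (0.12%). At an unadjusted p under 0.05 there were 4 Hox probes (12.1%), all lower in mutants, against 12.2% of all probes in either direction and 5.81% in the lower direction. The Hox share in either direction was close to the background with all 6 arrays. In the higher direction it was 0 Hox probes, against 6.43% of all probes. By direction, 0.0646% of all probes passed the adjusted threshold as higher and 0.0553% as lower. The count of 4 changed with single arrays. Without mutant c it was 7, of which 6 were lower and 1 higher (21.9%, against 13.3% of all probes), so that the share was then above the background. It was 2 without wildtype d (6.06%, against 9.67%), 2 without wildtype f (6.06%, against 8.05%) and 2 with median centring (6.06%, against 8.48%). The count of 26 was 11 without mutant b, wildtype d or wildtype f in turn, and 14 without wildtype e. Groups did not overlap for 5 Hox probes (15.2%, against 19.7% of all probes). Of these, 3 were lower (9.09%, against 8.56% of all probes) and 2 higher (6.06%, against 11.2%).

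Most Hox changes were small. The 95% intervals of the log2 fold changes covered 0 for 29 of the 33 probes and lay between -0.42 and 0.44 for all of these. Of the 32 genes, 20 had a negative and 12 a positive log2 fold change, with a median of -0.05, against a median of 0.01 and 46.8% negative over all 13234 genes tested. With median centring the signs of Hoxa7 and Hoxb7 were among those that turned. Within the wildtype group a Hox probe had a median SD of 0.09, the same as all probes tested. In mutants the median SD was 0.14 for Hox probes and 0.11 for all probes tested.

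**Figure D3:**
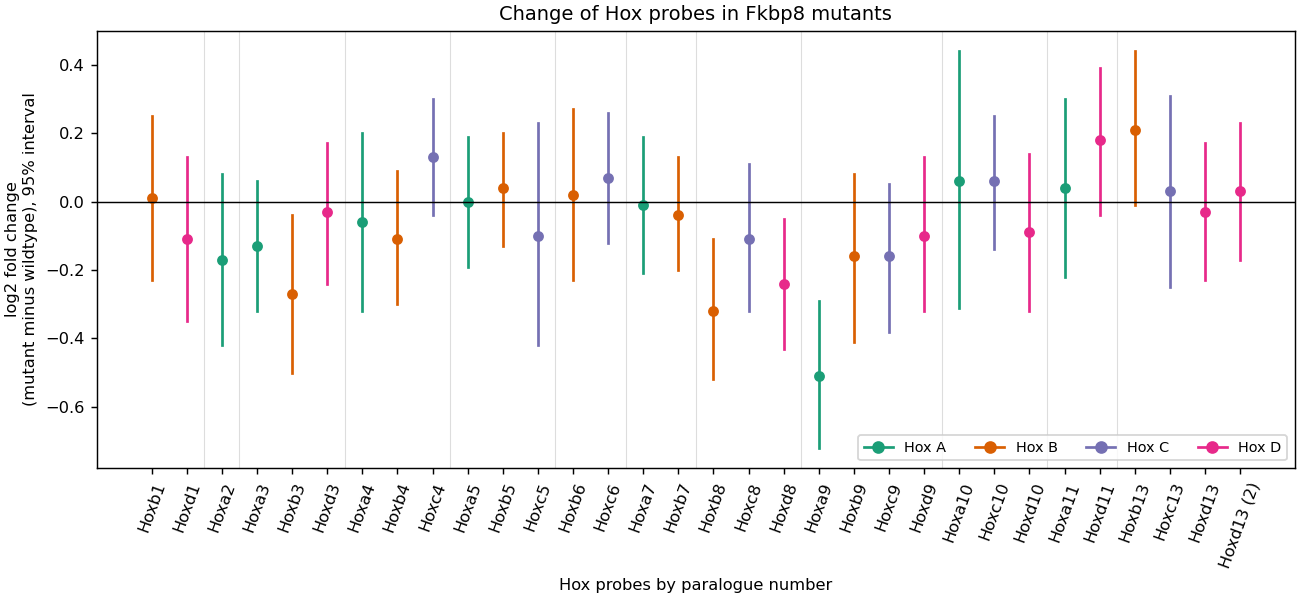
Log2 fold change (mutant minus wildtype) of the 32 reported Hox probes that were tested, ordered by paralogue number with vertical lines between numbers; points are estimates, bars 95% intervals and colours the clusters. Hoxb3, Hoxb8, Hoxd8 and Hoxa9 have intervals below 0. All 7 points of groups 8 and 9 lie below 0, but these groups were singled out after their values were seen, so nothing is read from this.

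Hoxa9 had the largest difference and the smallest p among the Hox genes. Hoxa9 acts with its paralogues at thoracic and lumbar levels and is well known as a partner of Meis1 in leukaemia. Its log2 intensity was 9.73, 9.41 and 9.54 in wildtype and 9.10, 9.02 and 9.05 in mutants. All 3 mutant values lay below all 3 wildtype values, and the mutant values ranged only from 9.02 to 9.10. The difference was 1.42-fold (log2 fold change -0.51, SE 0.09, 95% interval -0.72 to -0.29) and did not pass (limma adjusted p = 0.147). By exact permutation, two-sided, p was 0.1, the smallest value possible for 3 against 3. Without 1 array at a time, the log2 fold change of Hoxa9 ranged from -0.58 to -0.42, and the adjusted p from 0.146 to 0.442.

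The other genes of group 9, which set the thoracic level of motor neurons and ribs, had smaller differences, also negative. Hoxb9 had 9.88, 10.02 and 10.23 in wildtype and 10.02, 9.79 and 9.83 in mutants (log2 fold change -0.16, 95% interval -0.41 to 0.08). Hoxc9, a regulator that keeps limb motor neurons out of the thoracic cord, had 10.91, 10.91 and 10.93 in wildtype and 10.93, 10.71 and 10.62 in mutants (-0.16, interval -0.38 to 0.05). For both genes mutant a lay within or at the top of the wildtype values, and mutants b and c lay below all of them. Hoxd9, near background and fitted without mutant a, had a log2 fold change of -0.10 (interval -0.32 to 0.13), which was -0.01 with the unusable spot of mutant a kept. Over the 4 genes the median log2 fold change was -0.16 (-0.24 without mutant a), and 0 passed the test.

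In group 8, which patterns the thoracic spine and brachial motor neurons, all 3 genes had negative log2 fold changes and 0 passed the test. Hoxb8 had 8.16, 8.20 and 8.23 in wildtype and 8.04, 7.73 and 7.87 in mutants, with no overlap (1.24-fold lower, log2 fold change -0.32, SE 0.09). Hoxd8 had 10.57, 10.43 and 10.53 in wildtype and 10.17, 10.38 and 10.25 in mutants, again with no overlap (1.18-fold lower, log2 fold change -0.24, SE 0.08). Neither passed (limma adjusted p = 0.271 for Hoxb8 and 0.324 for Hoxd8). Hoxc8 had 11.48, 11.53 and 11.62 in wildtype and 11.32, 11.61 and 11.39 in mutants, which overlapped (log2 fold change -0.11, interval -0.32 to 0.11). Groups 8 and 9 together, singled out after their values were seen, had 7 of 7 genes negative, against 46.8% of all genes tested. An unadjusted p under 0.05 was reached by 3 of them (42.9%, against 13.5% of all genes tested in either direction), and the choice of these groups by their values means that nothing can be read from these shares.

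Promoter windows are shown for the 3 Hox genes whose mutant values all lay below wildtype. RefSeq (GRCm38.p6) gives windows from 250 bases before to 50 after a start site for 20 of the 34 genes (22 windows). Searched on both strands were TTTATNG, a core read by CDX and posterior HOX proteins, TGATTNAT, bound by HOX with PBX proteins, and TATAAA. Matches are in capitals. On its minus strand TATAAA reads as TTTATA and can overlap TTTATNG, as it did at 2 sites in Hoxb8.
Hoxa9, chr6:52227321-52227620, minus strand: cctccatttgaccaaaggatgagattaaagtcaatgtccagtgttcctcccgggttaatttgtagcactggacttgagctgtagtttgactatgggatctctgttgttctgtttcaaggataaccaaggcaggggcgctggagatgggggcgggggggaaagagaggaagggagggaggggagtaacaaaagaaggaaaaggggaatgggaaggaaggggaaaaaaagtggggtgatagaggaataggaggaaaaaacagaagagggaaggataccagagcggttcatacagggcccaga
Hoxb8, chr11:96281655-96281954, plus strand: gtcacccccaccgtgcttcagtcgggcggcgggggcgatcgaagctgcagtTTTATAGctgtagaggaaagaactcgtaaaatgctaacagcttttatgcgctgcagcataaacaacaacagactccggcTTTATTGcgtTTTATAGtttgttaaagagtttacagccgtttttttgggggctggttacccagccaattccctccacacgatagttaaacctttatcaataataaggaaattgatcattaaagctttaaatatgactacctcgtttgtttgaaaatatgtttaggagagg
Hoxd8, chr2:74704365-74704664, plus strand: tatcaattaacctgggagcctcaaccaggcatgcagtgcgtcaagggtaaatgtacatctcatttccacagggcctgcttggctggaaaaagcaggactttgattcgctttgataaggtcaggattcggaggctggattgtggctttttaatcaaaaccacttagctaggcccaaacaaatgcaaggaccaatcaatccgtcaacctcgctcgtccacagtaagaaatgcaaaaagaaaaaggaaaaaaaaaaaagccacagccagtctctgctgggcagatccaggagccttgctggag

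TTTATNG occurred 3 times in the window of Hoxb8 and in none of the other 21 Hox windows. Windows with at least 1 match made up 4.55% of Hox windows, against 10.9% of all 32851 windows. At least 3 matches were held by 0.0639% of all windows. That cut of 3 equals the Hoxb8 count, the highest among the Hox windows, so nothing is read from this share. In Hoxb8 the matches began at positions -199, -120 and -110 from the start site, on the strand of the gene. TGATTNAT was found in 2 Hox windows, those of Hoxa2 and Hoxd11 (9.09%, against 3.22% of all windows), and TATAAA in 3, those of Hoxa10, Hoxb8 and Hoxd13 (13.6%, as in all windows). The Hoxa9 and Hoxd8 windows held none of these letters. Hox windows had a median of 17.5 CG dinucleotides, against 7.0 over all windows, but Hoxa9 (4) and Hoxd8 (6) had fewer than Hoxb8 (13). A match describes letters, not binding.

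Genes of groups 1 to 4, which pattern the hindbrain, pharyngeal arches and neck, had 8 of 10 negative log2 fold changes, with a median of -0.08 and 0 past the test. That median was -0.13 without wildtype e, -0.05 without mutant b or wildtype f, and -0.04 without wildtype d. Hoxb3 had 9.21, 9.07 and 9.37 in wildtype and 8.84, 8.92 and 9.07 in mutants, so that mutant c met the lowest wildtype. It was the only member of these groups at an unadjusted p under 0.05 (log2 fold change -0.27, SE 0.10, limma adjusted p = 0.342). Hoxa3, a thymus and parathyroid gene, had 8.66, 8.78 and 8.71 in wildtype and 8.52, 8.52 and 8.71 in mutants (log2 fold change -0.13, interval -0.32 to 0.06). Hoxd3 had a log2 fold change of -0.03.

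Group 1 and group 2 showed overlapping values. Hoxb1, which gives a hindbrain segment its identity and is also made in the posterior embryo, had 11.86, 11.61 and 11.85 in wildtype and 11.90, 11.62 and 11.83 in mutants (log2 fold change 0.01, interval -0.23 to 0.25). Hoxd1 had a log2 fold change of -0.11 (interval -0.35 to 0.13). Hoxa2, the selector of an anterior pharyngeal arch, had 8.90, 8.92 and 9.08 in wildtype and 8.83, 8.59 and 8.98 in mutants (-0.17, interval -0.42 to 0.08).

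In group 4, Hoxc4 was the gene whose mutant values all lay above wildtype, at 7.78, 7.77 and 7.81 against 7.72, 7.68 and 7.57 (log2 fold change 0.13, SE 0.07, limma adjusted p = 0.506). Hoxb4, known for expanding blood stem cells, had 8.18, 7.93 and 8.11 in wildtype and 7.96, 7.94 and 7.99 in mutants (-0.11, interval -0.30 to 0.09). Hoxa4 had a log2 fold change of -0.06 (interval -0.32 to 0.20).

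Groups 5 to 7 had small differences. Hoxa5, a gene of the lung and the neck-to-thorax transition, had 11.96, 12.05 and 12.14 in wildtype and 11.98, 12.15 and 12.02 in mutants, with equal means of 12.05 (log2 fold change 0.00, interval -0.19 to 0.19). Hoxb5 had 9.90, 9.84 and 9.83 in wildtype and 9.93, 9.91 and 9.83 in mutants (0.04, interval -0.13 to 0.20), and Hoxc5 had a log2 fold change of -0.10 (interval -0.42 to 0.23). Hoxb6 had 10.63, 10.61 and 10.88 in wildtype and 10.69, 10.90 and 10.59 in mutants, and Hoxc6, a forelimb-level motor neuron gene, had 9.87, 9.91 and 10.02 against 10.04, 10.07 and 9.90. Their log2 fold changes were 0.02 and 0.07. The values of these genes overlapped between the groups. Hoxb7 had 10.14, 10.21 and 10.20 in wildtype and 10.19, 10.07 and 10.18 in mutants (-0.04, interval -0.20 to 0.13), and Hoxa7 had a log2 fold change of -0.01 (interval -0.21 to 0.19). Over groups 5 to 8 the median was -0.02, and it was 0.03 with median centring.

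Groups 10 to 13, which pattern the lumbar to caudal axis, had 6 of 8 genes positive, with a median log2 fold change of 0.05. That median was 0.12 without wildtype d, 0.09 without mutant b, 0.03 without wildtype e, 0.01 without wildtype f and 0.00 without mutant c. Hoxb13 was 0.21 higher (SE 0.10, limma adjusted p = 0.422), at 10.10, 10.12 and 9.85 in mutants, where mutant c lay below the highest wildtype value. Hoxd11 was 0.18 higher (SE 0.09, limma adjusted p = 0.482), at 10.98, 11.24 and 11.02 in mutants, just above all wildtype values. Hoxa10 had 9.25, 9.04 and 8.90 in wildtype and 9.04, 9.5 and 8.84 in mutants (log2 fold change 0.06, interval -0.31 to 0.44).

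The rest of these groups overlapped. Hoxc10 had 11.18, 10.96 and 11.05 in wildtype and 11.10, 11.06 and 11.20 in mutants (log2 fold change 0.06), and Hoxd10, a gene of lumbar motor neurons, had 9.93, 9.82 and 9.94 against 9.99, 9.63 and 9.78 (-0.09). Hoxa11 had 8.88, 8.68 and 8.94 in mutants (0.04), and Hoxc13, which also acts in hair and nails, had 9.03, 8.84 and 9.13 in mutants (0.03). The probes of Hoxd13 gave -0.03 and 0.03. None of the genes of groups 10 to 13 passed, and 0 of the 8 had an unadjusted p under 0.05.

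**Figure D4:**
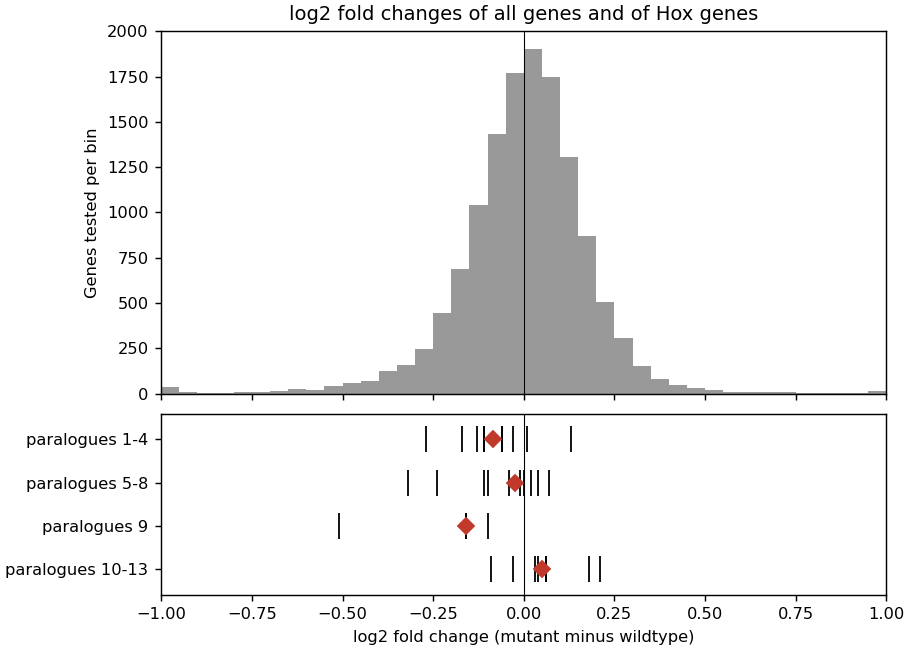
Top, histogram of log2 fold changes (mutant minus wildtype) of all 13234 genes tested, in bins of 0.05, with values beyond the axis in the end bins. Bottom, each Hox gene as a tick by paralogue group, with the median as a diamond; the medians are -0.08, -0.02, -0.16 and 0.05 from top to bottom, and every Hox value lies between -0.51 and 0.21.

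By cluster, negative log2 fold changes were found for 6 of 9 tested genes in cluster A (median -0.06), 5 of 9 in B (-0.04), 3 of 7 in C (0.03) and 6 of 7 in D (-0.09). The measured genes of the clusters cover different paralogue numbers (cluster C begins at Hoxc4, and cluster D has none from 5 to 7), so these medians mix groups unequally. Across the 32 genes the log2 fold change and the paralogue number had a Spearman rho of 0.30. In single clusters rho was 0.57 (A, 9 genes), 0.10 (B, 9), -0.36 (C, 7) and 0.68 (D, 7), so its sign was not the same in all. These are descriptions across genes that share the same 6 arrays.

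Single arrays contributed unevenly. The median deviation of the 32 Hox genes from their wildtype means was 0.01 in mutant a, -0.13 in mutant b and -0.04 in mutant c, and 0.03, -0.02 and 0.02 in wildtype d, e and f. For group 9 it was -0.02, -0.23 and -0.26 in the mutants, and 0.05, -0.03 and 0.00 in wildtype. For groups 1 to 4 it was 0.03, -0.17 and -0.04 in mutants against 0.05, -0.10 and 0.06 in wildtype. For groups 10 to 13 it was 0.08, -0.06 and 0.08 in mutants against 0.06, 0.00 and -0.06. Mutant a was thus the mutant closest to wildtype over the Hox genes and in group 9, and the mutant and wildtype ranges overlapped over all Hox genes and in each of the groups, with mutant a inside the wildtype range in group 9. In groups 5 to 8 the values were -0.04, 0.00 and -0.08 in mutants against -0.05, -0.01 and 0.05. Over all genes tested the corresponding medians lay between 0.00 and 0.02.

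Cofactors and regulators of Hox genes were taken from 7 lists. Of 65 genes listed, 55 had a probe and 49 were tested, and 0 had a limma adjusted p under 0.05 over the whole array. At an unadjusted p under 0.05 there were 12 (24.5%), 9 lower and 3 higher. Of all genes tested, on 1 probe per gene, 13.5% reached it in either direction (6.16% lower and 7.36% higher). The lists were chosen with earlier results of these data known, so nothing is read from the share of 24.5%. The median log2 fold change of the 49 genes was -0.03.

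The regulator with the smallest p, Wnt3a, was among the axial activators. Of 7 tested, Wnt3a and Cdx1 were lower at an unadjusted p under 0.05 (28.6%, against 13.5% of all genes tested in either direction). Wnt3a, a signal of tailbud and dorsal neural tube, had 9.22, 9.30 and 9.21 in wildtype and 8.64, 8.85 and 8.83 in mutants (log2 fold change -0.47, SE 0.08, limma adjusted p = 0.137). Cdx1, a direct activator of Hox genes, was lower at both of its probes. Its mutant and wildtype values did not overlap at either, as was so for 21% of all genes tested, in either direction. At the brighter probe Cdx1 had 9.02, 8.76 and 9.29 in wildtype and 8.56, 8.53 and 8.54 in mutants (log2 fold change -0.48, limma adjusted p = 0.239). The dimmer probe gave -0.51 (limma adjusted p = 0.157). The related Cdx2 (0.01, interval -0.29 to 0.31) and Cdx4 (-0.05, interval -0.26 to 0.16) overlapped between groups. The probes of Nr6a1, a trunk gene, disagreed in sign, at 0.17 and -0.46, and T (-0.11) and Fgf8 (-0.03) overlapped.

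TALE homeodomain proteins bind DNA together with HOX proteins. Of the 9 tested, Pbx4 and Pknox1 were lower at an unadjusted p under 0.05 (22.2%, against 13.5% of all genes tested in either direction). Pbx4 had 8.56, 8.55 and 8.66 in wildtype and 8.20, 8.23 and 8.18 in mutants (log2 fold change -0.39, SE 0.07, limma adjusted p = 0.155). Pknox1 had 8.56, 8.52 and 8.48 in wildtype and 8.35, 7.77 and 8.24 in mutants, lowest in mutant b (-0.41, SE 0.14, limma adjusted p = 0.321). Meis1 (0.20, interval -0.03 to 0.43) and Meis2 (0.14) did not pass.

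Retinoid genes were lower for Aldh1a2, which makes retinoic acid (-0.34, limma adjusted p = 0.40), and for the receptor gene Rarb (-0.29, limma adjusted p = 0.332). These 2 of the 5 tested had an unadjusted p under 0.05 (40%, against 13.5% of all genes tested). Of the chromatin regulators of the trithorax and Polycomb groups, 5 of 19 reached that level (26.3%, against the same 13.5%). The demethylases Kdm6b (-0.36) and Kdm6a (-0.24) and the Polycomb gene Bmi1 (-0.49) were lower, and Ezh1 (0.28) and Suz12 (0.21) higher. The third retinoid gene by p, Rarg, had a log2 fold change of -0.77 (interval -2.03 to 0.50), with 6.02 in mutant a beside 7.83 and 8.12. It was above background on 2 of 3 mutant arrays. In wildtype it had 7.97 (d) and 8.21 (f), and wildtype e had no usable spot. Kdm6a is X-linked, and its sex-linked part cannot be told apart. An unadjusted p under 0.05, reached by 13.5% of all genes tested, was found for 0 of the 6 tested neighbours of the clusters. Among them were Evx1 (0.01), next to cluster A, and Mtx2 (0.01) and Lnpk (-0.01 at its brighter probe), next to cluster D. The dimmer Lnpk probe gave -0.72 (interval -1.56 to 0.11), with 6.24 and 7.72 in mutants a and b and no usable spot in mutant c. It was above background on 1 mutant array. Evx2, between Lnpk and Hoxd13, was above background on no array.

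Noncoding RNAs of the clusters were mostly close to background. Hotair was above background on 1 of 3 arrays in each group, and Haglr and Hoxaas3 on none. Hottip, from the end of cluster A, had 7.30, 7.17 and 7.36 in wildtype and 7.40, 7.26 and 7.31 in mutants (log2 fold change 0.05). Hoxb5os had 11.64, 11.47 and 12.06 in wildtype and 11.36, 11.45 and 11.49 in mutants, which overlapped (-0.29, limma adjusted p = 0.442).

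**Figure D5:**
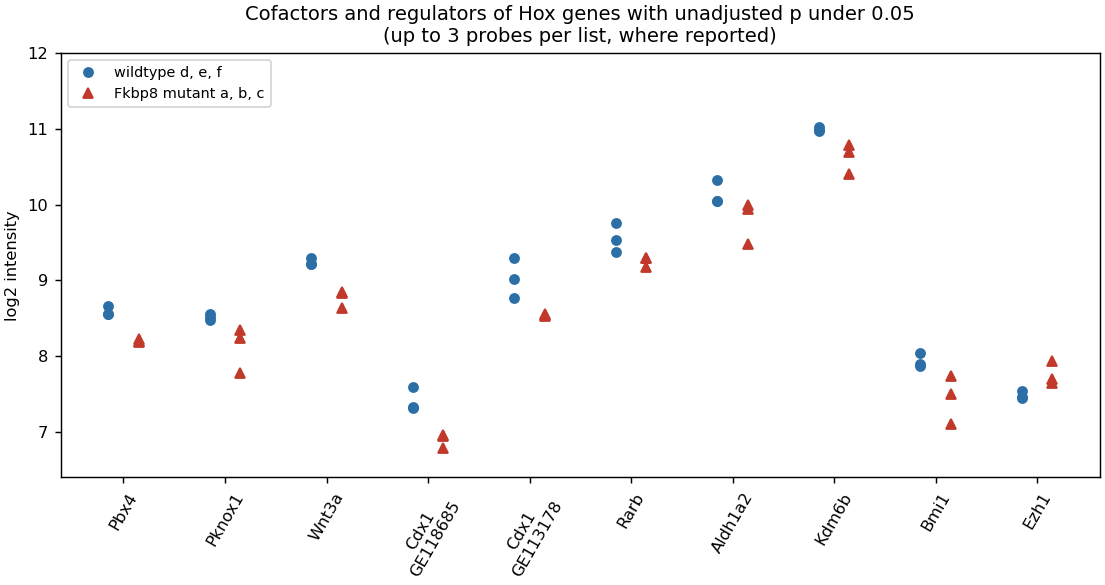
Log2 intensity on each array (circles wildtype d, e and f, triangles Fkbp8 mutants a, b and c) for up to 3 probes per list, where reported, of cofactors and regulators with an unadjusted p under 0.05; probe names mark genes with several tested probes. Mutant points lie below wildtype points for all of them but Ezh1, and no difference shown passed the adjusted threshold.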

How the data were processed

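Arrays were scanned and quantified by the authors with CodeLink Expression Analysis, as intensity (spot mean and median of the local background), per the file headers. The deposited series table held background-subtracted intensity divided by 1 factor per array, on a linear scale with a median of 1, and equalled the scanner's normalized intensity (largest difference 0). The scanner's deposited ratio of spot mean to background plus 1.5 background SD set the quality mark; probes marked good or saturated are called above background. The number of arrays limits the precision of all values.

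Spot means were background-corrected with normexp (offset 50), control spots were left out, contaminated, irregular or masked spots (339 to 508 per array) counted as missing, and quantile normalization was applied on the log2 scale. A probe entered the test if 3 or more of the 6 arrays exceeded background and each group had 2 or more usable spots. Testing was done with limma 3.58.1 (R 4.3.3), two-sided, adjusted by Benjamini-Hochberg over all 21688 probes, at a threshold of 0.05. SE and 95% intervals are limma's. The brightest probe stood for a gene in medians and counts of genes. Probes were named through the platform annotation and RefSeq (GRCm38.p6). Some genes of the lists are not reported here and count only in totals. The scripts were tested on simulated data.

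The members and lists were chosen with earlier results of these data known. Values per array are given for up to 6 tested Hox genes per direction with the smallest p, for those close to background, for groups 10 to 13 and for at least 1 gene of each number where measured, and up to 3 genes per other list are named by smallest p; other names were added after their values were seen. The alternatives were other normalizations, background corrections, deposited values, filters, variance models, spot flags, X and Y genes left out, each array left out, other detection calls and the mean over the probes of a gene.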

Additional observations from a re-analysis of the deposited data

How the results depend on the processing

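No paired analysis was possible because the replicate letters a to c and d to f are not shared between the groups; in the file headers the name of mutant a shares its leading digits with that of wildtype d, the sources do not explain them, and 1 such pair allows no block. No slide held more than 1 array, so no slide block was fitted. In each of 17 alternatives 0 Hox probes passed, with the smallest adjusted p, always that of Hoxa9, between 0.102 and 0.442, and 0 cofactors or regulators passed. The 26 probes called over the whole array became 16 with median centring, 13 with subtracted background and a floor of 1, 15 with deposited values, 16 with the filter on all 6 arrays, 14 without X and Y genes, and 11 to 37 without 1 array at a time. Hox probes at an unadjusted p under 0.05 numbered 2 with median centring and 2 to 7 without 1 array. The median log2 fold change of groups 5 to 8 was 0.03 with median centring. Without 1 array the median of groups 10 to 13 ranged from 0.00 to 0.12, that of groups 1 to 4 from -0.13 to -0.04, that of groups 5 to 8 from -0.05 to 0.00, that of group 9 from -0.24 to -0.14 and that of all Hox genes from -0.08 to -0.03. Of the 32 Hox probes reported singly, the sign held for 19 in every setting in which the probe was tested. It turned for 13, whose values before any alternative were at most 0.1 in size. Hoxd9, among the 19, was tested in 14 of the 17 alternatives, and each Hoxd13 probe in 16. With median centring those that turned included Hoxa7 (0.03) and Hoxb7 (0.03), with deposited values for Hoxa7 (0.00) and with array weights for Hoxa5 (0.00). Without 1 array the ranges reached or crossed 0 for Hoxa4 (-0.14 to 0.05), Hoxa5 (-0.05 to 0.05), Hoxa7 (-0.09 to 0.04), Hoxa10 (-0.12 to 0.21), Hoxa11 (-0.06 to 0.13), Hoxb1 (-0.07 to 0.09), Hoxb6 (-0.07 to 0.10), Hoxb7 (-0.06 to 0.00), Hoxc5 (-0.24 to 0.03), Hoxc13 (-0.06 to 0.15), Hoxd3 (-0.08 to 0.05) and the probes of Hoxd13 (-0.10 to 0.04 and -0.03 to 0.07). The cause of these shifts was not tested. Of the 35 Hox probes, 33 were above the 95th percentile of negative control spots on all wildtype arrays and 32 had a signal ratio of at least 1. On all mutant arrays these counts were 33 and 31. Signals of Hoxa6, Hoxa13 and Hoxd13 near background limit what could be detected for them.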

Other observations

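The probe GE127983 carried the symbols Hoxb3os and Hoxb2 together and was not counted among the Hox probes. Its log2 intensity was 9.10, 9.01 and 9.23 in wildtype and 9.09, 9.18 and 8.88 in mutants, which overlapped (log2 fold change -0.06, 95% interval -0.29 to 0.17), and it cannot be told which of the RNAs gave the signal.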
